A study of Mus musculus with 12 samples.

Results

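Clones C1 and 2C2 are independent lines of mouse embryonic stem (ES) cells that both lack the A-repeat of Xist. Their labels name the same deletion, and the question here is how far such clones differ in the rest of their transcription. They were chosen by their labels as 4 of the 12 libraries of the series: C1 without doxycycline (Dox), C1 with Dox, 2C2 without Dox and 2C2 with Dox. The cells are female, from a cross of the strains 129S and Cast, and a TetOn promoter stands in place of the native Xist promoter on the 129S allele, so that Dox switches on Xist from the 129S X chromosome. Dox was given for 24 h, or for 0 h in the untreated libraries. The cells were grown on mouse fibroblast feeders in medium with serum and LIF, and what was sequenced is RNA attached to chromatin, most of it nascent. Each line is 1 clone with 1 library in each Dox state, and counts per gene do not show where the deletion of a clone ends. The remaining libraries, used only for reference, come from WT cells (2 libraries), from C11 (2 libraries, a further clone of the A-repeat deletion) and from 11C (4 libraries, a line with another deletion in Xist).

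Xist is the long non-coding RNA that coats an X chromosome in female cells and starts its silencing. Its A-repeat, a tandem repeat close to the 5′ end, binds the silencing protein SPEN, and without it Xist still coats the chromosome but silences it poorly. Clonal ES cell lines each grow from a single cell, and such lines can gain or lose chromosomes or segments of them in culture and can settle at different places between naive and primed pluripotency. They also pass in and out of a rare state that resembles the 2-cell embryo. Interferon-responsive genes, many of them GTPases, antiviral sensors and parts of antigen presentation, are poorly inducible in ES cells compared with differentiated cells.

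Over all genes, the counts came to 25742430 (no Dox) and 27489603 (Dox) in C1 and to 22949578 and 27300014 in 2C2. In the 4 libraries, 44.6% to 47.1% of the counts carried a sequence variant that assigned them to the 129S or the Cast genome. Levels are given as counts per 1000000 counts (CPM) after TMM scaling. Of 8 markers of ES cells, 7 were measured, and their summed level was 1549 and 1671 CPM in C1 and 1532 and 1789 CPM in 2C2, without and with Dox. Zfp42 had the highest counts of them, and Pou5f1, which encodes the core factor OCT4, stood at 64.9 and 48.9 CPM in C1 and 60.3 and 57.8 CPM in 2C2. Of the 7 tested, 0 were higher in C1 and 3 were lower by small amounts, where 15.6% of all genes tested were higher and 14.9% lower: Nanog, a core pluripotency factor, at 79.5 and 68.8 CPM in C1 against 88.5 and 88.4 CPM in 2C2 (log2 difference -0.26), Klf4 (-0.24) and Esrrb (-0.18). Both clones thus carry the ES cell markers. Sox2 was listed at 0 in all 4 libraries, and its gene lies within the span of Sox2ot on the same strand, where read pairs that overlap 2 genes were not counted.

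Markers of cells that could be mixed in were also summed, and their calls are to be read beside the same 15.6% higher and 14.9% lower of all genes. By the study's methods the ES cells were separated from feeders by pre-plating before RNA was taken. The 11 markers of feeder fibroblasts summed to 643 and 567 CPM in C1 and 722 and 680 CPM in 2C2, nearly all of it Fn1, which encodes fibronectin. Without Fn1 the sums were 16.9 and 15.4 CPM in C1 and 13.6 and 14.6 CPM in 2C2. Of 9 feeder markers tested, 1 (Fn1) was lower in C1 and 0 were higher, and Lum, a fibroblast proteoglycan, was at 0 in all libraries but C1 without Dox, where it had 1 count. The 6 markers of primitive endoderm summed to 286 and 324 CPM in C1 and 283 and 371 CPM in 2C2, most of it Lama1, and 1 of 4 tested (Dab2, an endocytic adaptor) was lower in C1. The 5 trophoblast markers summed to 1.83 and 2.16 CPM in C1 and 2.87 and 3.20 CPM in 2C2, with Cdx2 at 0 in 2C2 without Dox. The only trophoblast marker with counts enough to test, Gata3, was lower in C1, at 1.17 and 1.01 CPM against 2.15 and 2.56 CPM (log2 difference -1.12, adjusted p = 6.65e-05). In bulk RNA, fewer cells of a type and less RNA per cell cannot be told apart, and the part of such cells in the differences below was not tested.

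Xist itself did not pass the threshold between the clones. It stood at 124 CPM in C1 and 129 CPM in 2C2 without Dox, and at 1528 CPM in C1 and 1245 CPM in 2C2 with Dox. C1 was the lower clone without Dox and the higher one with Dox, with a fitted log2 difference of 0.14 (SE 0.06, adjusted p = 0.0801). Tsix, the antisense transcript that restrains Xist, stood at 567 and 459 CPM in C1 and at 553 and 453 CPM in 2C2, a log2 difference of 0.03 (adjusted p = 0.771). Of 8 genes at Xist and around it, 3 were higher in C1 and 0 lower, with a list median of 0.12 that ran from 0.02 to 0.27 over the other settings of the fit, where 15.6% of all genes tested were higher and 14.9% lower. Among the higher ones, Jpx, a non-coding activator of Xist, stood at 6.70 and 9.47 CPM in C1 against 5.06 and 5.87 CPM in 2C2, and Tsx at 2.69 and 2.27 CPM against 1.75 and 1.48 CPM. Over the 8 genes the log2 differences ran from -0.03 to 1.11.

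Across the genome the clones differed at many genes, most of them by little. With Dox state as a term in an edgeR quasi-likelihood fit of the 4 libraries, 4548 of 14922 genes tested (30.5%) had an adjusted p under 0.05. Of these, 2332 (15.6% of genes tested) were higher in C1 and 2216 (14.9%) were lower. Off chromosome 11, 1636 of 13748 genes (11.9%) were higher in C1 and 2169 (15.8%) were lower. The excess of lower genes there depends on the scaling: with TMM factors from genes off chromosome 11, 1821 were higher and 1878 were lower. Among the called genes off chromosome 11 the median absolute log2 difference was 0.32, and 163 higher and 82 lower genes reached a log2 difference of 1. Differences were spread over the genome: the share of genes called ran from 23.3% on chromosome 17 to 35.8% on the X chromosome over the 19 chromosomes other than 11 and Y.

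These p-values measure only the spread between the libraries of a clone after a common Dox effect, with 1 residual degree of freedom per gene pooled over genes, and not the spread between independent clones. In a fit of all 12 libraries, whose spread includes that between replicates of 11C, 2 of 16254 genes (0.0123%) passed, Ddx60 (log2 difference 1.80, adjusted p = 0.0137) and Pkhd1 (-1.51, adjusted p = 0.0244), and 1259 had an unadjusted p under 0.05. DESeq2 called 1851 genes on the same 4 libraries and edgeR without the Dox term called 19, so the counts of calls depend on the fit far more than the log2 differences do.

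Among genes off chromosome 11 with a mean of at least 1 CPM in the higher clone, the largest rises in C1 were led by interferon-responsive genes. Gbp3, Gbp2 and Gbp2b encode guanylate-binding proteins, GTPases that attack the vacuoles of pathogens, and they lie side by side on the plus strand of chromosome 3, from chr3:142560051-142573212 (Gbp3) over chr3:142594846-142619176 (Gbp2b) to chr3:142620662-142638008 (Gbp2). Gbp3 stood at 3.74 and 2.99 CPM in C1, without and with Dox, and at 0.448 and 0.360 CPM in 2C2. Gbp2 stood at 8.84 and 5.29 CPM in C1 and at 1.34 and 0.540 CPM in 2C2. Gbp2b stood at 3.70 and 2.88 CPM in C1 and at 0.448 and 0.540 CPM in 2C2. In each Dox state C1 was several times above 2C2 for all of these genes, which were chosen for the size of their rise. The log2 differences were 3.04 (SE 0.29, adjusted p = 1.64e-23) for Gbp3, 2.93 (SE 0.21, adjusted p = 1.23e-42) for Gbp2 and 2.69 (SE 0.28, adjusted p = 2.95e-20) for Gbp2b. These are low levels: Gbp3 rested on 96 and 83 counts in C1 and on 10 and 10 counts in 2C2.

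Further genes of this kind met the rule for naming. Il15ra, the receptor chain that presents interleukin 15, stood at 1.95 and 1.69 CPM in C1 against 0.358 and 0.144 CPM in 2C2, a log2 difference of 2.89 (adjusted p = 1.29e-12). Ifih1, which encodes the RNA sensor MDA5, stood at 1.75 and 1.69 CPM against 0.313 and 0.396 CPM, a log2 difference of 2.25 (adjusted p = 3.46e-09). C1 was the higher clone in both Dox states for either gene, which that rule required. On chromosome 11 the immunity-related GTPase genes Irgm1, Tgtp1 and Tgtp2 were among the 4 genes with the largest rise below 100 Mb, again among genes with a mean of at least 1 CPM in the higher clone. Irgm1, which acts in autophagy of pathogens, stood at 9.19 and 8.75 CPM in C1 and at 2.33 and 1.69 CPM in 2C2, a log2 difference of 2.17 (SE 0.16, adjusted p = 7.71e-38). Tgtp2 had 38 and 18 counts in C1 and 4 and 1 counts in 2C2, and Tgtp1 had 34 and 29 counts against 10 and 5. Tgtp1 and Tgtp2 are close copies of one another, so the split of reads between them is uncertain. Both were higher in C1 in each Dox state, which the rule for naming required.

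Because of these genes a list of 90 interferon-responsive genes was written after their values had been seen, and it is described here without a test of the list. Of 76 list genes tested, 40 were higher in C1 and 4 were lower, with a list median of 0.45 against -0.01 over all genes tested, of which 15.6% were higher and 14.9% lower. Off chromosome 11, 30 of 64 were higher and 4 were lower, with a median of 0.35. By role, with no test between roles, of 13 GTPases tested 11 were higher and 1 (Gbp9) was lower, with a median of 1.94, and of the 8 of them off chromosome 11, 7 were higher and 1 lower. Of 11 antigen presentation genes 8 were higher and 0 lower, with a median of 0.78. Of 9 genes for cytokines and feedback 7 were higher and 0 lower (median 0.86), and of 20 antiviral effectors 10 were higher and 2 lower (median 0.31). Of 8 sensors 3 were higher (median 0.20), of 8 transcription factors 1 was higher and 1 lower (median -0.02), and of 7 receptors and kinases 0 passed in either direction (median -0.01).

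Off chromosome 11 the most highly counted member to rise was Ddx60, a helicase of antiviral defence at chr8:61928088-62037695 on the plus strand. It stood at 66.1 and 52.9 CPM in C1 and at 20.5 and 14.0 CPM in 2C2. Both C1 libraries were above both 2C2 libraries, with a log2 difference of 1.80 (SE 0.07, adjusted p = 3.73e-124). Parp12, an antiviral ADP-ribosyltransferase, stood at 30.3 and 26.7 CPM in C1 and at 10.5 and 10.4 CPM in 2C2 (log2 difference 1.44, adjusted p = 3.01e-51). Erap1, which trims peptides for class I molecules, stood at 42.1 and 34.7 CPM in C1 and at 18.2 and 15.8 CPM in 2C2 (log2 difference 1.17, adjusted p = 1.05e-44). Cd274, which encodes the checkpoint ligand PD-L1, stood at 4.01 and 3.96 CPM in C1 and at 1.21 and 1.26 CPM in 2C2 (log2 difference 1.68, adjusted p = 2.59e-13). In each of these C1 was higher in both Dox states.

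Several upstream members were nearly level. Stat2, a factor that acts below the interferon receptors, stood at 9.31 and 9.15 CPM in C1 and at 9.22 and 9.64 CPM in 2C2, a log2 difference of -0.03 (adjusted p = 0.865). Irf9, its partner, had a log2 difference of -0.11, and the receptor genes Ifnar1 and Ifnar2 had 0.07 and -0.01. None of these 4 passed the threshold in the 4-library fit. The transcription factor genes that passed went in opposite directions. Irf3, which acts below RNA sensors, was lower in C1, at 7.24 and 5.83 CPM against 8.02 and 8.31 CPM (log2 difference -0.33, adjusted p = 0.0369). Irf1, on chromosome 11, was higher, at 18.8 and 20.6 CPM in C1 and 10.5 and 9.72 CPM in 2C2, a log2 difference of 0.97 (adjusted p = 5.37e-20) beside a median of 0.54 for genes of its segment of chromosome 11. Members that went the other way were Samd9l, an antiviral translation inhibitor, at 12.4 and 11.9 CPM in C1 and 21.9 and 18.9 CPM in 2C2 (log2 difference -0.75), and Oas1a, a sensor of double-stranded RNA, at 32.2 and 30.0 CPM against 39.8 and 35.5 CPM (log2 difference -0.27).

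To show the letters that such genes can carry, promoters (RefSeq, GRCm38.p6) are printed for 4 members chosen because they hold a motif match, each as the 250 bases before the gene's start, with matches to GAAANNGAAA on either strand in capitals. This is a short form of the element that interferon regulatory factors bind, and a match here is a description of letters and no proof of binding. The Gbp3 promoter at chr3:142559794-142560043 (plus strand) holds 2 overlapping matches, while a second Gbp3 promoter in the table holds 0, and that of Gbp2 at chr3:142620413-142620662 (plus strand) holds 1. The Irgm1 promoter at chr11:48871421-48871670 (minus strand) holds 2 overlapping matches, and that of Ddx60 at chr8:61927837-61928086 (plus strand) holds 2. The promoters of Il15ra, Ifih1 and Irf1 hold 0.
Gbp3 promoter: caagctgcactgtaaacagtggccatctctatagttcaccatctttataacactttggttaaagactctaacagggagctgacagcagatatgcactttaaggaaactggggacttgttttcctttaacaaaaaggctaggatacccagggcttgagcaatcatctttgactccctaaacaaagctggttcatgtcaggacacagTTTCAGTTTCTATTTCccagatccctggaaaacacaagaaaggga
Gbp2 promoter: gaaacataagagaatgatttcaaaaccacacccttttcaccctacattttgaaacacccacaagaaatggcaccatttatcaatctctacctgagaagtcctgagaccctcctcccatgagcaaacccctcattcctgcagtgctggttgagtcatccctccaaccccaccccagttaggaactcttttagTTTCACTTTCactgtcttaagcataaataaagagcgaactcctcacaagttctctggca
Irgm1 promoter: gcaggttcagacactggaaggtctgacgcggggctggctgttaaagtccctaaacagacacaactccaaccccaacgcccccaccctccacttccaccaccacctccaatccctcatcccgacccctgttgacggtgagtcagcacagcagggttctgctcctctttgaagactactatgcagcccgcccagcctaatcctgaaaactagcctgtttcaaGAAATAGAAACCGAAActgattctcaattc
Ddx60 promoter: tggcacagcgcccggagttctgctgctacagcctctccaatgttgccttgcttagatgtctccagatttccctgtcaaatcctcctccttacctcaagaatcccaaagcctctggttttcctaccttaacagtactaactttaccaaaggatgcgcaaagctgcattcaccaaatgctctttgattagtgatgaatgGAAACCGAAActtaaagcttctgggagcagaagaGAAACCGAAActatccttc

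Promoters were found for 71 of the 90 list genes. Of all 27025 genes with a promoter in the table, 936 (3.46%) hold the motif in these 250 bases of at least 1 promoter. Of the 31 list genes that were higher in C1 and have a promoter in the table, 10 (32.3%) hold it, and of the 29 that were tested and not higher, 8 (27.6%) hold it. The motif was thus common in the list whether or not a gene was higher in C1.

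**Figure D1:**
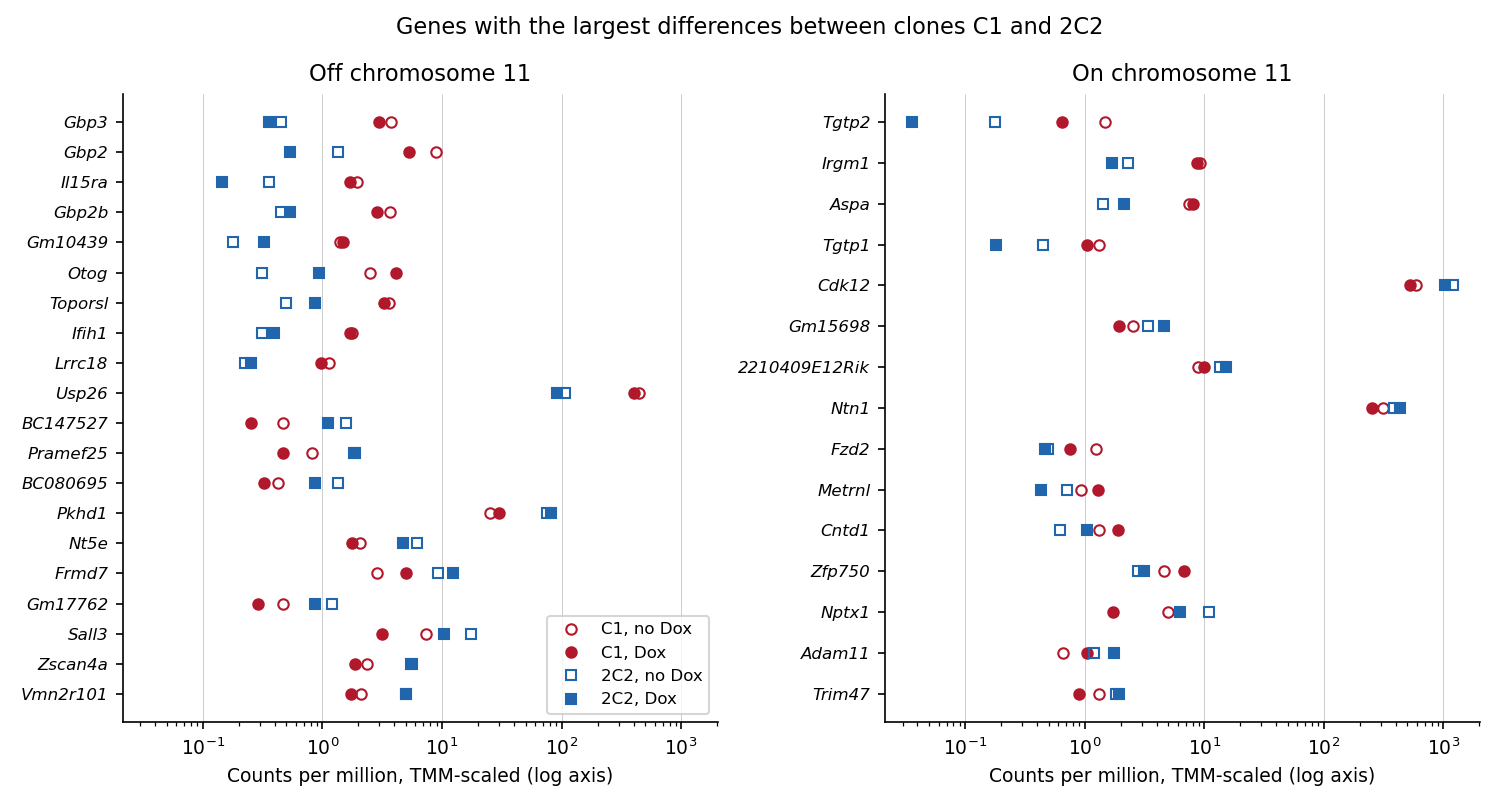
Levels of the genes with the largest differences among those of at least 1 CPM in the higher clone, in CPM on a log axis, in the 4 libraries (open, no Dox; filled, Dox), for 20 genes off chromosome 11 and 15 on it. Gbp3 sits near 3 CPM in C1 and below 0.5 CPM in 2C2, while Pkhd1 and Cdk12 are higher in 2C2.

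The other genes named off chromosome 11 for a rise in C1 had varied roles. Usp26, a deubiquitinase gene of the germ line on the minus strand at chrX:51753958-51801233, was the one with high counts. It stood at 447 and 403 CPM in C1 and at 106 and 92.3 CPM in 2C2. C1 was more than 4-fold higher in each Dox state, with a log2 difference of 2.10 (SE 0.06, adjusted p = 2.70e-259). Otog, which encodes a protein of the inner ear's tectorial membrane, stood at 2.49 and 4.14 CPM in C1 and at 0.313 and 0.936 CPM in 2C2 (log2 difference 2.38). Toporsl stood at 3.58 and 3.28 CPM against 0.492 and 0.864 CPM (log2 difference 2.29), and the predicted gene Gm10439 at 1.40 and 1.48 CPM against 0.179 and 0.324 CPM (log2 difference 2.46). Both were higher in C1 without and with Dox, which the rule for naming required. Lrrc18 stood at 1.13 and 0.972 CPM against 0.224 and 0.252 CPM (log2 difference 2.10), and Wdfy4, which spans it on the other strand, had 178 and 172 counts in C1 and 68 and 98 in 2C2.

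Under the same minimum level, the largest falls in C1 off chromosome 11 were smaller than the largest rises. Pkhd1, which encodes fibrocystin, a membrane protein of primary cilia, lies on the minus strand at chr1:20057778-20618057. It stood at 25.2 and 30.0 CPM in C1 and at 74.8 and 81.8 CPM in 2C2. Both 2C2 libraries were far above both C1 libraries, with a log2 difference of -1.50 (SE 0.07, adjusted p = 1.34e-110). Sall3, a zinc-finger gene of development, stood at 7.28 and 3.17 CPM in C1 and at 17.6 and 10.4 CPM in 2C2 (log2 difference -1.45, adjusted p = 6.86e-30). Frmd7 stood at 2.88 and 4.97 CPM against 9.18 and 12.4 CPM (log2 difference -1.46, adjusted p = 5.63e-25), and Nt5e, the surface nucleotidase CD73, at 2.06 and 1.77 CPM against 6.18 and 4.71 CPM (log2 difference -1.50, adjusted p = 1.49e-14). These genes were chosen for the size of their fall, so the gap between the clones is no separate result. Sall3 was also lower with Dox than without in either clone.

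The rest of the falls were mostly in genes of repeated families, for which the origin of a read is uncertain, and they include genes of the 2-cell state. Zscan4a, of a family that marks that state, stood at 2.34 and 1.87 CPM in C1 and at 5.55 and 5.61 CPM in 2C2 (log2 difference -1.41, adjusted p = 1.12e-13). Pramef25, a Prame family gene, stood at 0.818 and 0.468 CPM against 1.84 and 1.87 CPM (log2 difference -1.54, adjusted p = 3.15e-06). BC147527, BC080695, Gm17762 and Vmn2r101, a vomeronasal receptor gene, had log2 differences of -1.90, -1.53, -1.45 and -1.39. All were lower in C1 in both Dox states, which the rule for naming required.

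Many genes of the 2-cell list were lower in C1. Of 14 genes tested, 9 (64.3%) were lower, 0 were higher and 5 did not pass, where 14.9% of all genes tested were lower. The list median was -1.04 against -0.01 over all genes tested, and several members are close copies of one another. Zscan4d stood at 3.23 and 2.63 CPM in C1 and at 6.22 and 5.90 CPM in 2C2. Zscan4f stood at 2.80 and 3.75 CPM against 8.10 and 6.87 CPM, and Zfp352, a further marker of the state, at 2.80 and 1.87 CPM against 5.19 and 5.15 CPM. For each of these the levels in C1 were below those in 2C2 in both Dox states, with log2 differences of -1.05, -1.18 and -1.16. Fewer cells in this state and less of this RNA per cell would give the same values.

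Genes of naive pluripotency were mostly lower in C1, by small amounts. Of 17 tested, 10 (58.8%) were lower and 1 (5.88%) was higher, against 14.9% and 15.6% of all genes, with a list median of -0.18 that ran from -0.27 to -0.12 over the other settings. Tbx3, a transcription factor of the naive network, stood at 54.0 and 46.7 CPM in C1 and at 84.0 and 76.9 CPM in 2C2 (log2 difference -0.68, adjusted p = 7.94e-27). Tfcp2l1, another such factor, stood at 416 and 320 CPM against 613 and 486 CPM (log2 difference -0.58, adjusted p = 9.54e-22). Klf2 stood at 24.1 and 17.5 CPM against 31.8 and 25.2 CPM (log2 difference -0.46, adjusted p = 3.06e-07). In these 3 genes C1 was lower in both Dox states, whereas Dppa3 was higher, at 5.34 and 5.29 CPM in C1 and 3.58 and 3.38 CPM in 2C2 (log2 difference 0.61). Pou5f1 (log2 difference -0.07) and Zfp42 (0.07) did not pass.

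Among genes of the formative and primed states, more were higher than lower in C1. Of 17 tested, 8 (47.1%) were higher in C1 and 2 (11.8%) were lower, against 15.6% and 14.9% of all genes, with a list median of 0.27. Lef1, a Wnt effector, stood at 89.4 and 92.1 CPM in C1 and at 47.6 and 52.7 CPM in 2C2 (log2 difference 0.85, adjusted p = 1.14e-42). Otx2, a factor of the formative state, stood at 32.6 and 27.7 CPM against 20.5 and 19.5 CPM (log2 difference 0.59, adjusted p = 2.09e-11), and Fgf5, a marker of the primed epiblast, at 6.39 and 7.71 CPM against 4.25 and 4.10 CPM (log2 difference 0.76, adjusted p = 2.30e-06). All were higher in C1 without and with Dox. The de novo methyltransferase genes Dnmt3a (log2 difference 0.29) and Dnmt3b (0.31) were higher, while Dnmt3l (-0.35) and Etv4 (-0.34) were lower.

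Germline genes were higher in C1 where they passed. Of 18 tested, 9 (50.0%) were higher and 0 were lower, against 15.6% and 14.9% of all genes, with a list median of 0.34. Off chromosome 11, 7 of 16 were higher and 0 were lower, with a median of 0.34. There 11.9% of all genes tested were higher and 15.8% lower. Asz1, of the piRNA pathway, stood at 7.32 and 9.76 CPM in C1 and at 4.88 and 4.64 CPM in 2C2 (log2 difference 0.85). Ddx4, the germ cell helicase VASA, stood at 17.72 and 20.96 CPM against 11.9 and 15.1 CPM (log2 difference 0.52), and Sycp1, of the synaptonemal complex, at 107 and 107 CPM against 87.9 and 82.1 CPM (log2 difference 0.34). C1 was higher in each Dox state in these 3 genes. In the p53 pathway, 9 of 20 genes (45.0%) were higher and 1 (5.00%) was lower, with a median of 0.21. Off chromosome 11, 7 of 18 were higher and 1 was lower, with a median of 0.15. Trp53 itself and Ccng1 lie on chromosome 11 (log2 differences 0.44 and 0.40), and off that chromosome Mdm2, the ligase that restrains p53, stood at 225 and 236 CPM in C1 and at 170 and 192 CPM in 2C2 (log2 difference 0.35). Cdkn1a, the cell-cycle inhibitor p21, stood at 21.8 and 28.1 CPM against 18.7 and 26.1 CPM and did not pass (adjusted p = 0.135).

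Imprinted genes differed singly more than as a group. Of 37 tested, 11 (29.7%) were higher and 7 (18.9%) were lower in C1, against 15.6% and 14.9% of all genes, with a median of 0.06 that ranged from -0.01 to 0.10 over the other settings of the fit. Off chromosome 11, 8 of 34 were higher and 7 were lower, with a median of 0.02. There 11.9% of all genes tested were higher and 15.8% lower. Snrpn, a splicing protein gene, stood at 10.5 and 11.8 CPM in C1 and at 23.0 and 27.2 CPM in 2C2 (log2 difference -1.17, adjusted p = 3.60e-33). Grb10, a growth inhibitor gene on chromosome 11, stood at 68.6 and 77.2 CPM in C1 and at 34.2 and 41.1 CPM in 2C2 (log2 difference 0.95, adjusted p = 1.18e-47). H19 was higher in C1, at 17.7 and 12.8 CPM against 10.7 and 9.57 CPM (log2 difference 0.57), and Plagl1 was lower, at 63.5 and 48.5 CPM against 86.8 and 69.4 CPM (log2 difference -0.48).

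The remaining lists held fewer or mixed calls, to be read beside 15.6% higher and 14.9% lower over all genes tested and a median of -0.01. In DNA methylation, 5 of 14 genes were lower in C1 and 2 were higher (median -0.12, from -0.20 to -0.07 over the other settings), among them Uhrf1, which recruits the maintenance methyltransferase, at 108 and 82.6 CPM in C1 and 145 and 121 CPM in 2C2. Among Polycomb genes, 6 of 19 were lower and 2 were higher (median -0.10, from -0.11 to -0.01 over the other settings), and the 2 that were higher, Suz12 (log2 difference 0.46) and Pcgf2 (0.37), lie on chromosome 11. The integrated stress response had 4 higher and 1 lower of 14 (median 0.10, from 0.07 to 0.17), and the lower one, Asns (asparagine synthetase), stood at 204 and 183 CPM against 277 and 271 CPM. Immediate early genes had 2 higher of 11, Fosb (0.62) and Egr1 (0.65), with a median of 0.06 that ran from -0.06 to 0.33 over the other settings. Glycolysis had 3 higher and 5 lower of 16, with a median of -0.05 that ran from -0.17 to 0.08. Cholesterol synthesis had 2 lower of 16 (median -0.06, from -0.12 to -0.05), and germ layer genes 2 higher and 4 lower of 13 (median -0.06, from -0.19 to -0.03). The wider feeder list had 1 higher and 1 lower of 20 (median 0.13, from 0.08 to 0.22). The wider trophoblast list had 0 higher and 2 lower of 6 (Gata3 and Tfap2a, median 0.11, from 0.10 to 0.26). Of 31 Hox genes only 3 had counts enough to test, and 1, Hoxd8, was lower (log2 difference -1.39, adjusted p = 0.0450) on 1 and 9 counts in C1 and 14 and 11 counts in 2C2.

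**Figure D2:**
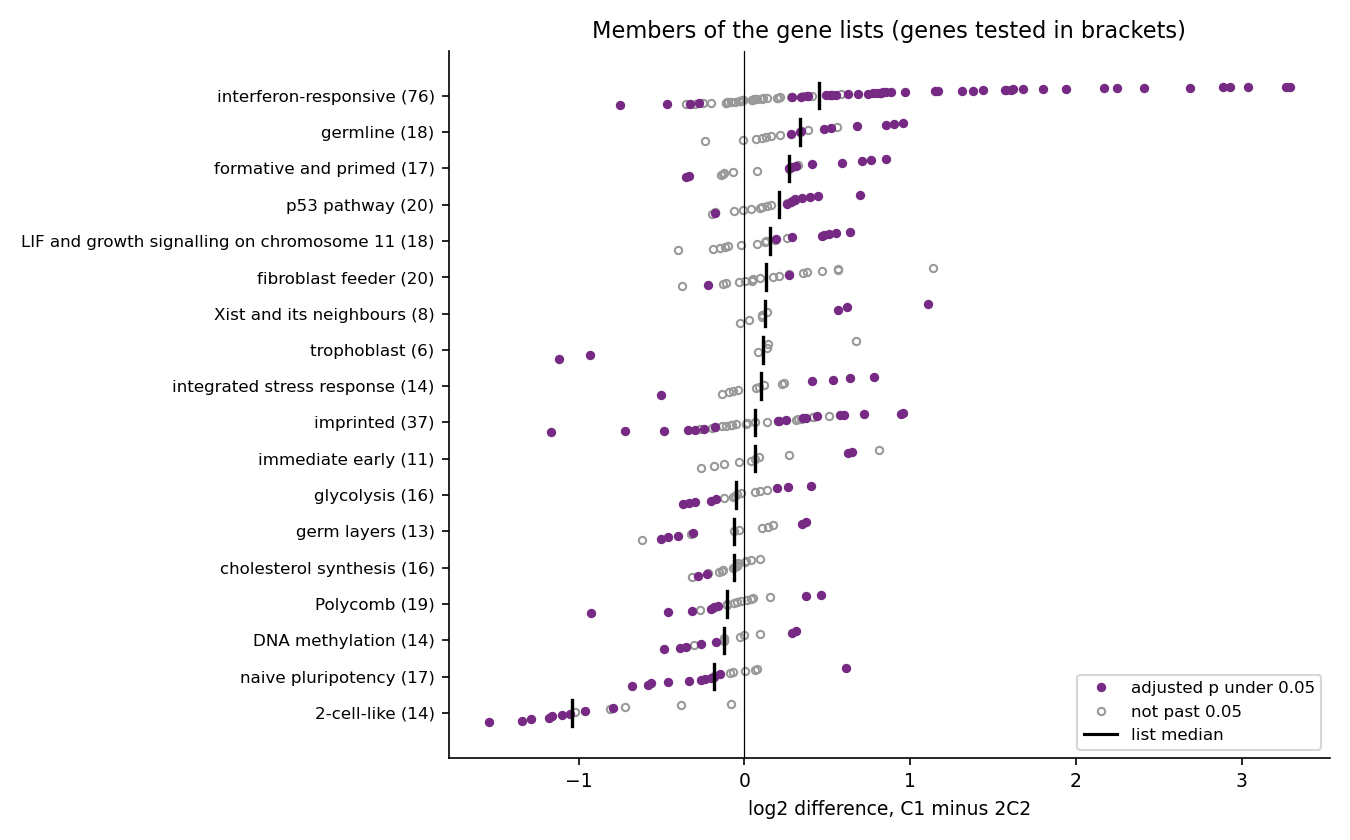
Log2 differences, C1 minus 2C2, of the tested members of each list with at least 6 tested genes; filled points have an adjusted p under 0.05, and bars are list medians. The 2-cell list has a median of -1.04 and the interferon-responsive list, chosen after its values were seen, a median of 0.45.

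Chromosome 11 stood apart from all others in total level. Of its 1174 genes tested, 696 were higher in C1 and 47 were lower, which is 63.3% called. Among genes averaging 50 counts or more, the median log2 difference was 0.45 on chromosome 11 and lay between -0.05 and -0.01 on each of the 18 other autosomes and the X chromosome. Below 100 Mb the median over 707 genes was 0.54 without Dox and 0.53 with Dox, and 674 of the genes (95.3%) were above 0. Above 100 Mb the median over 257 genes was 0.02 without Dox and -0.05 with Dox, and 123 (47.9%) were above 0. In windows of 10 Mb the median ran from 0.36 to 0.63 up to 100 Mb and from -0.06 to 0.02 beyond it.

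**Figure D3:**
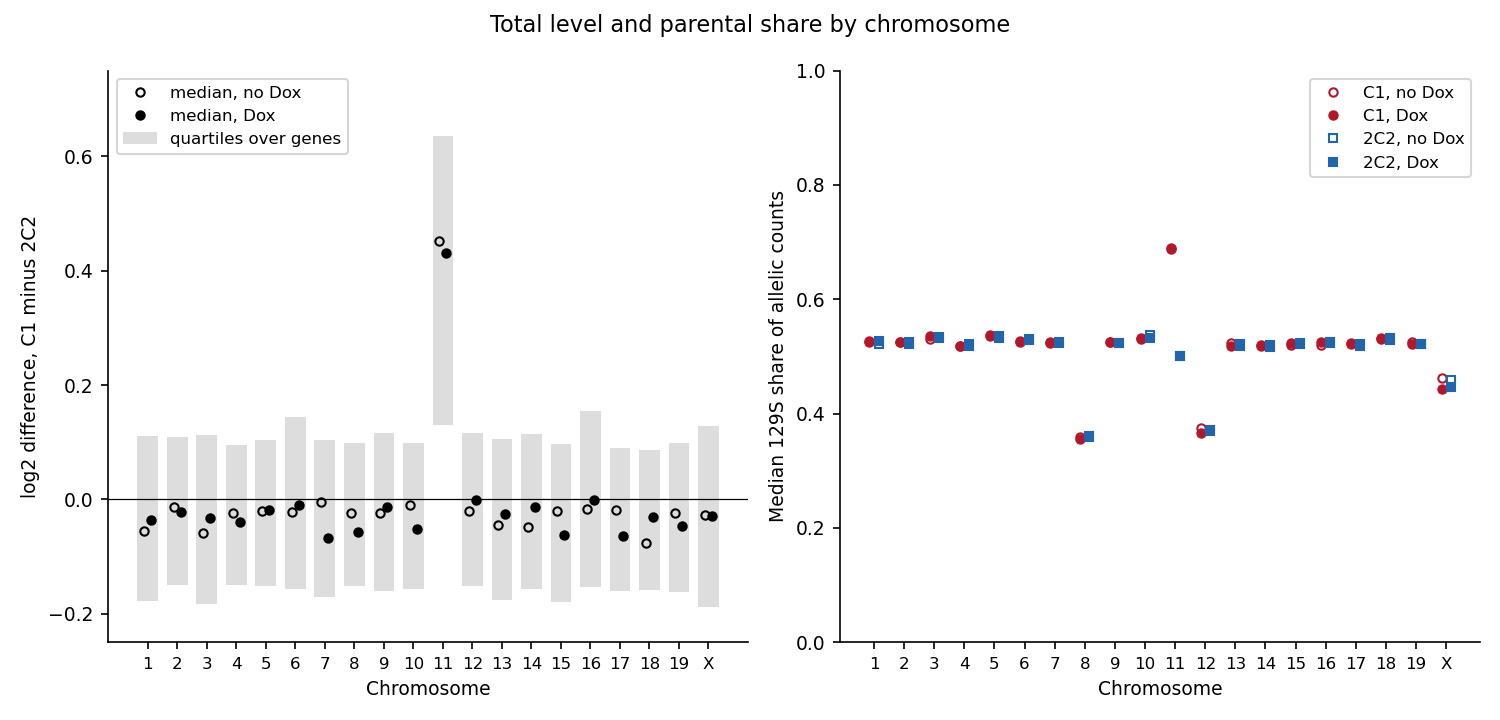
Left, median log2 difference of CPM, C1 minus 2C2, by chromosome and Dox state, with the quartiles over genes as bars; right, median 129S share of allelic counts in the 4 libraries. Chromosome 11 departs in both panels, and chromosomes 8 and 12 have a low 129S share in both clones.

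Gene by gene, the change along chromosome 11 fell at Cdk12, a boundary that was chosen after the values were seen. Cdk12 encodes a kinase of RNA polymerase II that sustains transcription of long genes, and it lies on the plus strand at chr11:98203304-98253540. It stood at 588 and 531 CPM in C1 and at 1198 and 1030 CPM in 2C2. It was about 2-fold lower in C1 in each Dox state, with a log2 difference of -0.99 (SE 0.06, adjusted p = 1.77e-56), although its neighbour Med1, of the Mediator complex, was higher in C1 at 193 and 182 CPM against 138 and 125 CPM (log2 difference 0.51). The 20 genes before Cdk12 had a median log2 difference of 0.58, and the 20 genes after it had a median of -0.06. Stard3, the next gene tested for its share, stood at 9.70 and 11.1 CPM in C1 and 10.6 and 11.5 CPM in 2C2 (log2 difference -0.09, adjusted p = 0.596).

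The parental shares changed at the same place. In C1 the 129S share of Cdk12 was 0.678 without Dox (3102 of 4578 allelic counts, 95% Wilson interval 0.664 to 0.691) and 0.670 with Dox (0.656 to 0.683). In 2C2 it was 0.178 without Dox (1595 of 8976 counts, 0.170 to 0.186) and 0.172 with Dox (0.164 to 0.179). The intervals of the clones were far apart, and they cover counting error only. Relative to the allelic counts of the other autosomes, the Cast counts of Cdk12 were 5.64-fold higher in 2C2 than in C1 without Dox and 5.31-fold higher with Dox, whereas its 129S counts in 2C2 were 0.580 and 0.543 of those in C1. Over the 20 genes before Cdk12 the median 129S share was 0.540 and 0.534 in 2C2, and over the 20 genes after it 0.387 and 0.374, while in C1 it was 0.697 and 0.709 before and 0.704 and 0.685 after. No other gene of chromosome 11 was named for a lower level in C1 with a difference as large below 100 Mb.

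Summed over genes, the parental genomes moved apart by segment. Before Cdk12, over 688 genes, the 129S counts per 1000000 allelic counts of the other autosomes were 54460 and 53210 in C1 and 28260 and 27820 in 2C2, and the Cast counts were 23860 and 23450 in C1 and 24250 and 24240 in 2C2. On that side the clones differed in the 129S genome and were nearly level in the Cast genome. After Cdk12, over 282 genes, the 129S counts were 12830 and 12900 in C1 and 6428 and 6717 in 2C2, and the Cast counts were 5908 and 5921 in C1 and 11490 and 12030 in 2C2. There the clones differed in both genomes and in opposite directions, and the totals were nearly level. The WT libraries had 34340 and 34130 129S counts and 26290 and 26030 Cast counts before Cdk12, and 8225 and 8183 129S counts and 8146 and 7913 Cast counts after it. These are RNA counts, and the number of copies of each segment was not measured.

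**Figure D4:**
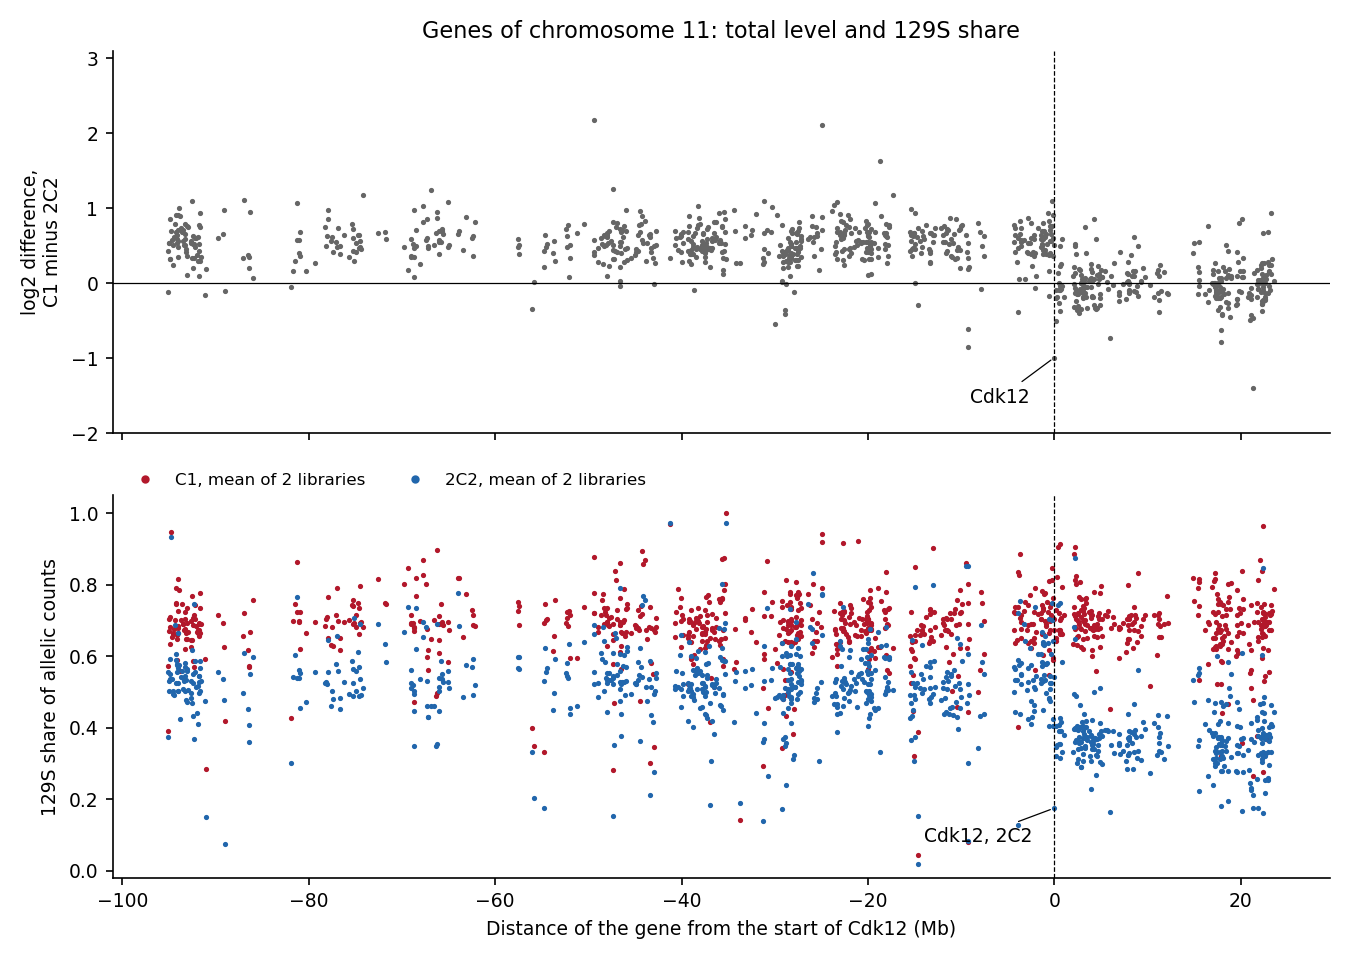
Genes of chromosome 11 tested in both total and allelic counts, by distance from the start of Cdk12 in Mb; top, log2 difference of total level, C1 minus 2C2; bottom, 129S share of allelic counts as the mean of 2 libraries of each clone. At the dashed line the level difference falls from near 0.5 to near 0 and the 129S share of 2C2 falls, while that of C1 does not.

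Other genes named on chromosome 11 stood out from their segment. Aspa, which splits N-acetylaspartate, stood at 7.48 and 8.03 CPM in C1 and at 1.43 and 2.12 CPM in 2C2 (log2 difference 2.11, adjusted p = 3.95e-32). Below 100 Mb only 8 of 850 genes tested were lower in C1, and besides Cdk12 those named were Ntn1, the guidance cue netrin-1, at 310 and 255 CPM against 386 and 433 CPM (log2 difference -0.54), and the neighbours Gm15698 (-0.85) and 2210409E12Rik (-0.60). Ntn1 and Gm15698 did not pass in DESeq2 (adjusted p = 0.0605 and 0.148). Above 100 Mb, 45 of 324 genes tested were higher and 39 were lower. Nptx1, which encodes neuronal pentraxin 1, stood at 5.02 and 1.73 CPM in C1 and at 11.01 and 6.30 CPM in 2C2 (log2 difference -1.40, adjusted p = 2.31e-19). It was lower in C1 within each Dox state, which the rule for naming required. Its level in C1 without Dox came close to that in 2C2 with Dox. Adam11 and Trim47 were lower by smaller amounts (log2 differences -0.79 and -0.78). Zfp750, an epidermal transcription factor gene, stood at 4.60 and 6.77 CPM in C1 and at 2.82 and 3.13 CPM in 2C2 (log2 difference 0.94). Fzd2, a Wnt receptor gene, Metrnl and Cntd1, a meiotic gene, had log2 differences of 1.02, 1.00 and 0.94 at levels near 1 CPM. Tbcd, which overlaps Zfp750 on the other strand, had 6602 and 7635 counts in C1 and 5203 and 7088 in 2C2. Becn1, which overlaps Cntd1 on the other strand, had 1004 and 1011 counts in C1 and 881 and 1155 in 2C2. Whether reads of the other strand add to Zfp750 and Cntd1 was not tested.

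Of 18 genes of LIF and growth signalling that lie on chromosome 11, 7 (38.9%) were higher in C1 and 0 were lower, with a median of 0.16. The list has members on both sides of 100 Mb, and of all genes tested 76.6% were higher below it and 13.9% above it. Those below 100 Mb include Map2k4, a stress kinase, at 368 and 413 CPM in C1 and 249 and 252 CPM in 2C2 (log2 difference 0.64), and Nf1, a brake on Ras, at 393 and 471 CPM against 294 and 329 CPM (0.47). Stat3, the effector of LIF, lies beyond 100 Mb and stood at 87.0 and 87.7 CPM in C1 and 78.7 and 74.4 CPM in 2C2 (log2 difference 0.19, adjusted p = 0.00484), and did not pass in DESeq2 (adjusted p = 0.175). Grb2, an adaptor above 100 Mb, stood at 101 and 119 CPM against 97.6 and 126 CPM and did not pass (log2 difference -0.02).

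In the 129S share of allelic counts the clones differed mainly on chromosome 11. Over all chromosomes 1147 of 12116 genes tested (9.47%) had a different share at an adjusted p under 0.05, and 772 of these lie on chromosome 11, all with the higher share in C1. Off chromosome 11, 375 of 11145 genes (3.36%) passed, 181 with a higher and 194 with a lower share in C1, and for 67 of them the mean difference reached 0.1. With all 12 libraries in the fit, a setting added after seeing the data, 104 genes off chromosome 11 passed, and without the Dox term 197. Chromosomes 8 and 12 had a low median share in both clones, and 24 of 658 genes (3.65%) on chromosome 8 and 17 of 465 (3.66%) on chromosome 12 differed between them. The medians were 0.359 and 0.355 on chromosome 8 and 0.375 and 0.366 on chromosome 12 in C1, and 0.359 and 0.360 on chromosome 8 and 0.370 and 0.371 on chromosome 12 in 2C2. The WT libraries had 0.353 and 0.351 on chromosome 8 and 0.376 and 0.375 on chromosome 12. On the other 16 autosomes the medians of the 4 libraries lay between 0.517 and 0.537.

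Among the genes named off chromosome 11 the lowest adjusted p was that of 4930467D21Rik on chromosome 5. Its 129S share was 0.452 without Dox (157 of 347 counts, Wilson interval 0.401 to 0.505) and 0.495 with Dox (0.451 to 0.539) in C1, and 0.252 (72 of 286 counts, 0.205 to 0.305) and 0.247 (0.211 to 0.288) in 2C2. The intervals of the clones did not overlap (adjusted p = 1.56e-19). Xlr3c, of an X-linked family of close copies, had shares of 0.573 (0.465 to 0.675) and 0.486 (0.393 to 0.580) in C1 and 0.868 (0.784 to 0.923) and 0.755 (0.678 to 0.819) in 2C2 (adjusted p = 9.79e-08). Mir669m-2, a microRNA gene annotated on the X chromosome, had 0.679 (0.493 to 0.821) and 0.533 (0.361 to 0.698) in C1 and 0.854 (0.716 to 0.931) and 0.964 (0.879 to 0.990) in 2C2. For both X-linked genes 2C2 was higher in each Dox state, though without Dox the intervals of Mir669m-2 overlapped.

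The guanylate-binding protein genes appear here too. Gbp9 on chromosome 5 had 129S shares of 0.512 (21 of 41 counts, 0.365 to 0.657) and 0.710 (22 of 31, 0.534 to 0.839) in C1 and 0.917 (44 of 48, 0.804 to 0.967) and 1.00 (33 of 33, 0.896 to 1.00) in 2C2 (adjusted p = 1.46e-06). Gbp7 on chromosome 3 had shares of 0.821 (0.702 to 0.900) and 0.729 (0.590 to 0.834) in C1 and 0.474 (0.273 to 0.683) and 0.533 (0.301 to 0.752) in 2C2 (adjusted p = 0.0416). Its total level was also higher in C1, at 3.47 and 2.88 CPM against 1.03 and 1.08 CPM (log2 difference 1.57). So the 129S share in C1 was the lower one for Gbp9 and the higher one for Gbp7, on few counts. For Gbp7 the intervals of the clones overlapped with Dox.

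Other genes named for their share rested on few allelic counts, 16 to 50 in a library off chromosome 11. Leprel2, a collagen prolyl hydroxylase gene, and Plekhb1 had a higher 129S share in C1 by 0.285 and 0.253. Tmem79 and Gna15, a G protein subunit gene, had a lower share in C1 by differences of -0.366 and -0.320. On chromosome 11 Rfng, a glycosyltransferase gene of Notch signalling, and Nt5c, a nucleotidase gene, were named with Cdk12, with shares higher in C1 by 0.501 and 0.500. Both lie on the side of Cdk12 where 2C2 had the low 129S share.

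The reference libraries place these differences, in reads per 1000000 counts of a library (RPM). Ddx60 stood at 65.9 and 53.4 RPM in C1 and 20.0 and 14.2 RPM in 2C2, at 29.6 and 22.7 RPM in WT, at 19.02 and 13.6 RPM in C11, and between 75.9 and 120 RPM in the 4 libraries of 11C. Usp26 stood at 173 and 97.96 RPM in WT and 141 and 126 RPM in C11, and between 259 and 403 RPM in 11C, against 445 and 407 RPM in C1 and 103 and 94.0 RPM in 2C2. For both genes C1 was on the side of 11C, and 2C2 on that of C11. Pkhd1 stood at 102 and 110 RPM in WT, 91.3 and 98.5 RPM in C11 and between 23.0 and 24.0 RPM in 11C, against 25.1 and 30.3 RPM in C1 and 72.8 and 83.3 RPM in 2C2. Gbp2 stood at 3.26 and 2.303 RPM in WT, at 1.19 and 0.364 RPM in C11 and between 1.23 and 6.26 RPM in 11C, so that both C1 libraries (8.82 and 5.35 RPM) were above WT and both 2C2 libraries (1.31 and 0.549 RPM) below it. Cdk12 was the reverse case: C1 (587 and 536 RPM) was near WT (654 and 614 RPM), and 2C2 (1166 and 1049 RPM) was far above all other libraries, of which C11 had 468 and 429 RPM and 11C from 386 to 453 RPM.

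The 11C libraries also had a 129S share above 0.6 on chromosome 11, as C1 did: before Cdk12 the share of summed counts was 0.690 to 0.692 in 11C, 0.695 and 0.694 in C1, 0.538 and 0.534 in 2C2, 0.530 and 0.526 in C11 and 0.566 and 0.567 in WT. After Cdk12 it was 0.679 to 0.681 in 11C, 0.685 and 0.685 in C1, 0.359 and 0.358 in 2C2, 0.517 and 0.517 in C11 and 0.502 and 0.508 in WT. Thus C1 and 11C, which had the high 129S share, were also the lines with high Ddx60 and Usp26 and low Pkhd1, and whether these features go together beyond these lines was not tested. The list medians tell a like story for some groups: against WT without Dox, the median log2 difference of the 14 genes of the 2-cell state was -1.02 and -1.10 in C1, -0.16 and -0.02 in 2C2, -0.03 and 0.28 in C11 and between -2.50 and -0.59 in 11C. For the 76 interferon-responsive genes it was 0.45 and 0.36 in C1, -0.17 and -0.14 in 2C2, -0.26 and -0.28 in C11 and between 0.01 and 0.74 in 11C. For the 17 naive genes it was -0.09 and -0.32 in C1, 0.05 and 0.00 in 2C2, 0.14 and 0.15 in C11 and between -0.39 and 0.09 in 11C. For the 17 formative and primed genes it was 0.03 and -0.16 in C1, -0.27 and -0.25 in 2C2, -0.06 and -0.29 in C11 and between -0.36 and 0.63 in 11C. For each of these 4 lists the libraries of 11C alone spread more widely than the clones differed.

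**Figure D5:**
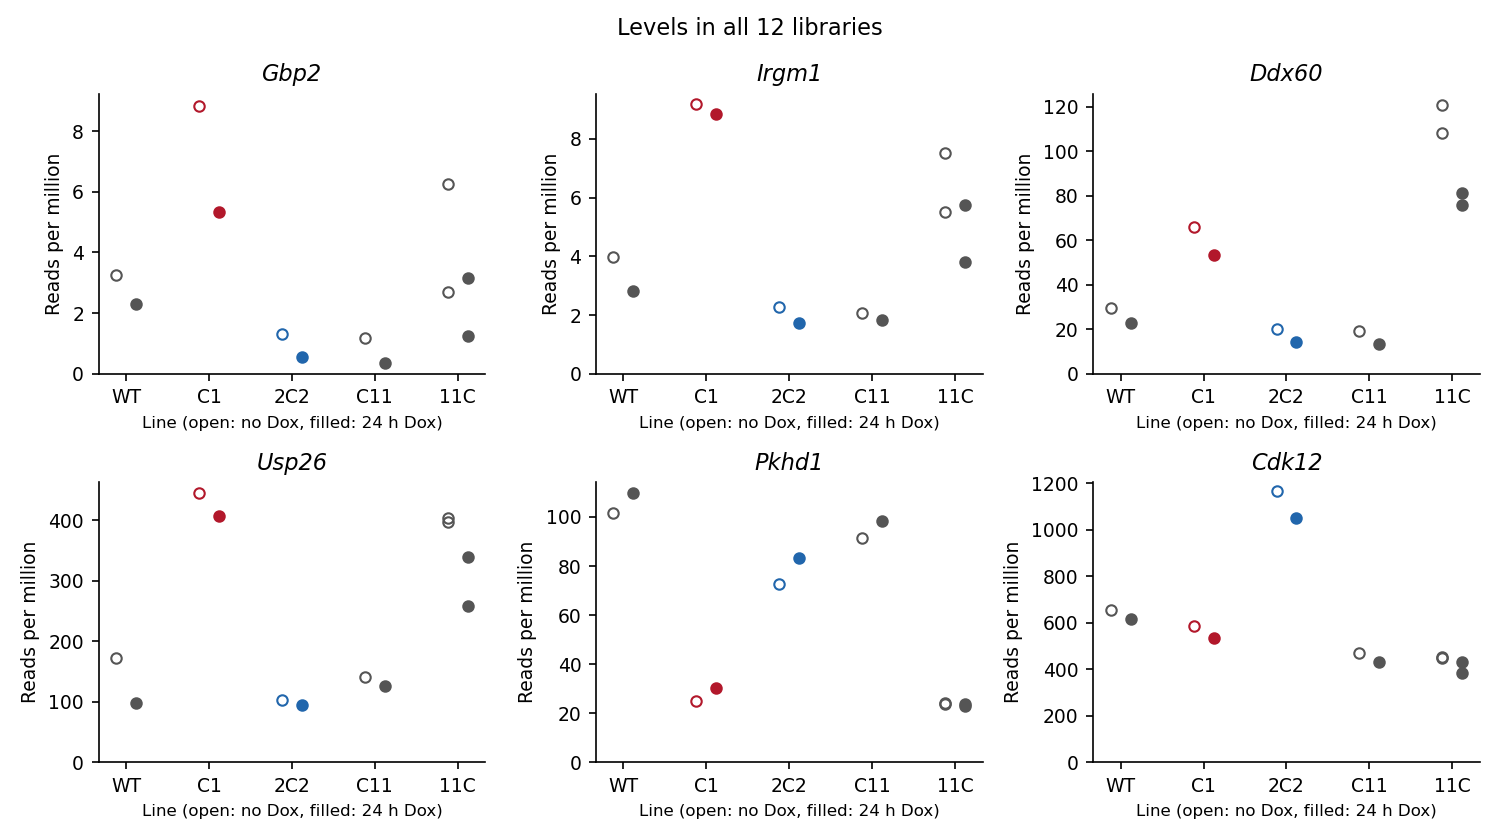
RPM of 6 genes in all 12 libraries by line (open, no Dox; filled, 24 h of Dox). C1 lies with 11C and 2C2 with C11 for Ddx60, Usp26 and Pkhd1, while for Cdk12 the 2C2 libraries, at 1166 and 1049, are above all others.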

How the data were processed

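The authors aligned reads with Bowtie2 2.3.2 (ribosomal RNA) and STAR 2.4.2a (mm10), and the deposited counts are raw featureCounts 1.5.2 counts of read pairs per gene span, by strand and with introns, for all pairs and for each parental genome. The genome with nearly all Xist counts was taken as 129S. The members and lists were chosen with earlier results of these data known, and the interferon-responsive list after gene values had been seen.

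Total counts were fitted in edgeR 4.0.16 (R 4.3.3, limma 3.58.1; quasi-likelihood, TMM, filterByExpr with a minimum count of 10, two-sided, Benjamini-Hochberg) with terms for clone and Dox. Allelic counts were fitted as paired columns with terms for library, allele, allele by Dox and allele by clone, for genes with at least 10 in each library and a mean of at least 20. Medians by chromosome used a pseudocount of 0.5 and genes averaging 50 counts or more. Other values came from Python 3.11.15 (pandas 2.3.3, numpy 2.4.6).

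Named genes off chromosome 11 are the 10 with the largest log2 difference in each direction past the threshold, with a mean of at least 1 CPM in the higher clone and the same direction in both Dox states, and on chromosome 11 the 4 in each direction on either side of 100 Mb. For shares they are 5 in each direction off chromosome 11 and 3 on it. List members could also be named, and a few items that these rules select are not reported here. Genes near Cdk12, Sox2ot and Wdfy4 were chosen after their values were seen. Alternatives were DESeq2 1.42.0, other normalizations, filters, thresholds and sets of libraries.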

Additional observations from a re-analysis of the deposited data

Results flagged for a closer look

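For Xist, the log2 difference of C1 minus 2C2 was -0.06 without Dox and 0.30 with Dox, so the clones stood in opposite order in the 2 Dox states. With 1 library in each state of each clone, this difference between the states was not tested.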

How the results depend on the processing

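No paired analysis was possible because the clone labels carry no replicate numbers to pair by. The libraries were matched by Dox state alone, through the Dox term of the fit. Of genes that differed in total counts, 4548 in all and 3805 off chromosome 11, DESeq2 called 1851 and 1394, the fit of 12 libraries 2 and 2 (with 1259 and 814 at an unadjusted p under 0.05), and the fit without a Dox term 19 and 17. An absolute log2 difference of at least 1 left 293 and 245. Without 1 of the 4 libraries, in a 12-library design, edgeR called from 0 to 0 genes in both, with 427 to 514 and 222 to 294 at an unadjusted p under 0.05. The common coefficient of biological variation was 3.82% in 4 libraries and 19.3% in 12. Other normalizations, filters and the 6 libraries of the A-repeat clones gave counts within 1.5 times. Of the named genes checked for total level, 35 were weaker and 3 the same in the fit of all 12 libraries. Without the Dox term 30 were weaker and 8 the same, and with the 6 libraries of the A-repeat clones 38 were the same.

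Of genes that differed in 129S share, 1147 in all and 375 off chromosome 11, leaving out a library in the 12-library fit gave 574 to 630 (600 and 608 between them) and 27 to 29 (28 in 2 cases). Off chromosome 11, no allele by Dox term gave 197, a share difference of at least 0.1 gave 67, and all 12 libraries, added after seeing the data, gave 104. The cause of these differences was not tested. Without the allele by Dox term, 5 of the genes named for their share were weaker and 8 were the same. More of them were weaker when a library was left out of the 12-library fit.

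The median of chromosome 11 below 100 Mb, 0.531, was 0.542 with a mean of at least 10 counts, 0.563 relative to autosomal genes off chromosome 11 and 0.539 when split at Cdk12 (added after seeing the data), and 0.53 to 0.536 in single Dox states. Above 100 Mb, single Dox states gave -0.054 to 0.0236. Low-count genes, such as Tgtp2 and Hoxd8, are limited by depth.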
